A study of Mus musculus with 6 samples.

Results

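Macrophages grown from mouse bone marrow with GM-CSF were compared with macrophages grown from the same kind of marrow with M-CSF, by RNA sequencing of whole cultures. The comparison used 4 of the 6 libraries of the study, chosen by their labels: GM-BMDM against M-BMDM, both without interleukin-6 (IL6), and as a check of direction and size GM-BMDM_3h against M-BMDM_3h, cultures of the same kinds after 3 h of IL6. Each of the 4 groups had 1 library and no replicate. Of 55536 named genes in the deposited count table, 22953 had a count in any of the 4 libraries and 14719 were analysed further, because they reached 1 CPM (1 count per 1000000 counts of the library) in at least 1 library of the study.

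All mice were C57BL/6 and 8 weeks old, and every culture lasted 7 days in either GM-CSF or M-CSF, and the labels name no genetic alteration in any group. The remaining 2 libraries, uncultured marrow and M-BMDM after 24 h of IL6, entered the scaling and 1 fit. The labels do not say whether the libraries came from separate animals or cultures, and they give neither a dose of the growth factors nor a purification of the macrophages. As these are bulk cultures, fewer cells of a type and less RNA per cell cannot be told apart.

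M-CSF binds a receptor tyrosine kinase, the product of Csf1r, and is the growth factor that keeps most tissue macrophages alive. GM-CSF binds a pair of receptor chains, encoded by Csf2ra and Csf2rb, that carry no kinase of their own and signal through the kinase JAK2 and the transcription factor STAT5. GM-CSF is needed for alveolar macrophages of the lung, and marrow grown in it is known to give a mixture of macrophages and cells with features of dendritic cells.

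The 4 libraries held between 18511777 and 24134374 counts in named genes, and in each of them the gene with the most counts was Lyz2, the lysozyme of myeloid cells. Transcripts of the mitochondrial genome made up 3.15% and 3.06% of the counts in the GM-CSF libraries and 2.06% and 1.94% in the M-CSF libraries. The part of this difference in the results below was not tested. The labelled cell type was checked on 12 macrophage markers, which summed to 56083 and 55038 CPM against 38101 and 43014 CPM; here and below the values stand in the order GM-BMDM and GM-BMDM_3h against M-BMDM and M-BMDM_3h, and CPM are counts per 1000000 after scaling between libraries. Without IL6, 1 of these markers was higher with GM-CSF (Mertk), 4 were lower (Csf1r, Adgre1, Fcgr1 and Cd14) and 7 differed by less than 2-fold. B cell markers summed to at most 0.920 CPM, T and NK cell markers to at most 2.67 CPM and erythroid markers to at most 10.4 CPM in any of the 4 libraries.

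Both macrophage types expressed the core macrophage genes, and 2041 of 10495 genes (19.4%) differed between them without IL6 by at least 2-fold. The rule for a call as higher or lower in a pair was that the ratio of its scaled counts was at least 2-fold, that its exact 95% interval lay to 1 side of no difference, and that the higher library had at least 5 CPM. The reads carry no molecular identifiers, so these intervals cover counting error only. Without IL6, 1134 of 10495 genes were higher in GM-BMDM (10.8%) and 907 were lower (8.64%). With scaling by total counts in place of TMM, every ratio moved by about -0.16 on the log2 scale, and the share of higher genes among all that differed was 43.2%, compared with 55.6% with TMM.

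The pair after 3 h of IL6 shares no library with the pair without IL6 and gave 1108 higher (10.6% of 10449) and 842 lower genes (8.06%). Of the 1134 higher genes, 948 were called higher again, which is 83.6% of the first list and 85.6% of the second. Of the 907 lower genes, 724 were called lower again, 79.8% and 86.0% of the lists. These 948 and 724 genes are 9.18% and 7.01% of the 10328 genes tested in both pairs. Only 4 genes were called in opposite directions. The log2 ratios of a gene in the 2 pairs differed by a median of 0.15, and 99.1% of genes had ratios within 2-fold of each other.

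Libraries of the same macrophage type differed in fewer genes. By the same rule, 17 of 10255 genes (0.166%) differed between GM-BMDM_3h and GM-BMDM, 6 of them higher (0.0585%) and 11 lower (0.107%) with IL6. Between M-BMDM_3h and M-BMDM 36 of 9937 genes (0.362%) differed, 9 of them higher (0.0906%) and 27 lower (0.272%). Those pairs differ by 3 h of IL6 and not as replicates. With a prior count of 2 added, ratios of at least 4-fold in both pairs were found for 420 higher and 205 lower genes, and ratios of at least 32-fold for 74 and 11.

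**Figure D1:**
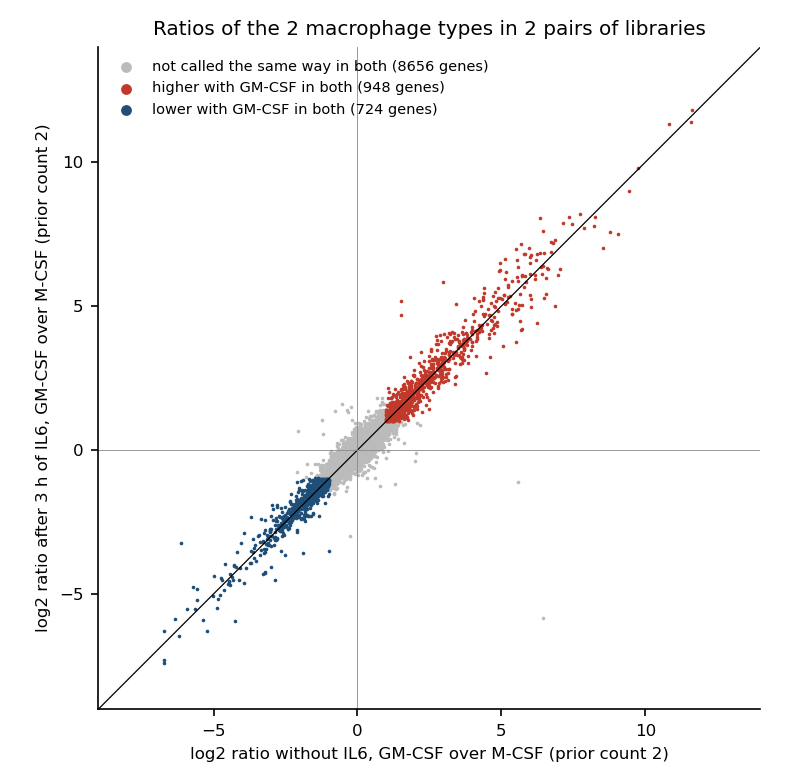
Each point is a gene with at least 5 CPM in a library of both pairs; the horizontal axis is its log2 ratio GM-BMDM over M-BMDM, the vertical axis the log2 ratio GM-BMDM_3h over M-BMDM_3h, both with a prior count of 2, and the diagonal line marks equal ratios. The 948 genes higher in both pairs (red) and the 724 lower in both (blue) lie along the line, and 99.1% of all genes lie within 2-fold of it.

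A quasi-likelihood test in edgeR, fitted to all 6 libraries at once, with macrophage type and IL6 as terms, called 4259 of 14719 genes higher (28.9%) and 4028 lower (27.4%) at an adjusted p of 0.05. This fit has 1 residual degree of freedom, and its spread (a biological coefficient of variation of 6.45%) is that between the 3 h responses of the 2 types. Its p-values therefore describe these libraries and may measure technical spread. The number of called genes in each gene list below is to be read against the shares over all tested genes, 10.8% higher and 8.64% lower without IL6, and 9.18% and 7.01% in both pairs. The differences below are given as pair ratios, and the edgeR values are added for a few genes. The median of a list in a pair is over the members that reached 5 CPM in that pair, so the members can differ between pairs.

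Csf2rb and Csf1r, which encode receptors of the 2 growth factors, differed in opposite directions, each higher in the cells grown in its own ligand. In the list of growth factor receptors and ligands, 7 of 11 genes reached 5 CPM, 2 were higher and 2 lower, the same in both pairs. Csf2rb (ENSMUSG00000071713, chromosome 15, 78325752 to 78353847, GRCm38), the signalling chain shared by GM-CSF, interleukin-3 and interleukin-5, had 2628 and 2722 CPM against 592 and 632 CPM. Both GM-CSF libraries lay above both M-CSF libraries, by 4.44-fold without IL6 (log2 ratio 2.15, 95% interval 2.12 to 2.18; edgeR log2 2.13, standard error 0.0931, adjusted p = 4.3e-78). Csf1r, the M-CSF receptor, had 1068 and 1050.4 CPM against 3234 and 3406 CPM. It was lower with GM-CSF (log2 ratio -1.6, 95% interval -1.62 to -1.58; edgeR log2 -1.65, standard error 0.0952, adjusted p = 1.4e-51).

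Csf2ra, the chain that binds GM-CSF, had 554 and 476 CPM against 280.5 and 280.1 CPM, and Csf2rb2, a second mouse beta chain that serves interleukin-3, had 1162 and 1174 CPM against 608 and 610.3 CPM. Both stayed below the 2-fold limit in both pairs, with log2 ratios 0.98 and 0.77 for Csf2ra and log2 ratios 0.93 and 0.94 for Csf2rb2. Csf2rb and Csf2rb2 are closely similar copies, so reads may have been divided between them. Csf1, which encodes M-CSF itself, was higher in the GM-CSF cultures, with 77.2 and 80.2 CPM against 27.3 and 22.1 CPM (log2 ratio 1.5, 95% interval 1.35 to 1.64). Csf3r, the receptor of the neutrophil growth factor G-CSF, was lower, with 7.68 and 9.01 CPM against 45.1 and 44.3 CPM. Csf2, the gene of GM-CSF, had 1 and 2 counts against 0 and 0 in the 4 libraries.

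The genes that restrain or carry growth factor signals differed in both directions. Of 28 listed genes, 26 reached 5 CPM; 5 were higher and 8 lower (7 of them in both pairs), and the list's median log2 ratio was -0.53 without IL6 and -0.39 after 3 h, against -0.03 over all genes tested in either pair. The higher genes were 4 suppressors of cytokine signalling and the kinase Pim1. Cish (ENSMUSG00000032578, chromosome 9, 107296026 to 107302784), a target of STAT5 that binds cytokine receptors and dampens them, had 174 and 172 CPM against 0.967 and 0.544 CPM. It was close to the limit of detection in the M-CSF libraries and 180.1-fold higher in GM-BMDM (log2 ratio 7.49, 95% interval 6.83 to 8.25; edgeR log2 7.86, standard error 0.158, adjusted p = 4.8e-193).

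Socs2, another STAT5 target of the same family, had 54.6 and 60.8 CPM against 2.09 and 2.58 CPM (log2 ratio 4.71, 95% interval 4.25 to 5.2). Socs1, an inhibitor of JAK kinases and of interferon signalling, had 19.9 and 20.1 CPM against 4.08 and 3.81 CPM (log2 ratio 2.29, 95% interval 1.93 to 2.66), and Socs6 had 62.5 and 60.04 CPM against 25.7 and 24.8 CPM. These genes were higher in both GM-CSF libraries than in both M-CSF libraries. Pim1, a survival kinase induced by STAT5, had 312 and 316 CPM against 66.7 and 60.9 CPM (log2 ratio 2.23, 95% interval 2.14 to 2.32). Socs3, the member induced by STAT3, had 142 and 141 CPM against 102 and 99.3 CPM and stayed below 2-fold (log2 ratios 0.48 and 0.51).

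The genes of the STAT proteins differed little. Stat5a had 41.6 and 47 CPM against 38.8 and 41.5 CPM, Stat5b had 57.2 and 63.6 CPM against 39.7 and 43.3 CPM and Stat3 had 131 and 143 CPM against 148 and 160.4 CPM; none reached 2-fold in either pair.

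The lower genes were cyclin D1, Myc, 5 inhibitors of the MAP kinase pathway and, in the pair without IL6 alone, the lipid phosphatase Inpp5d. Ccnd1 (chromosome 7, 144929931 to 144939925), which drives entry into the cell cycle, had 19.7 and 16.3 CPM against 569 and 597 CPM and was 28.9-fold lower in GM-BMDM (log2 ratio -4.85, 95% interval -5.0 to -4.71; edgeR log2 -5.02, standard error 0.102, adjusted p = 9.4e-191). Myc, a transcription factor of growth, had 43.4 and 44.4 CPM against 112 and 114 CPM. The MAP kinase phosphatases Dusp4 (29.5 and 30.3 CPM against 164 and 161 CPM) and Dusp6 (24 and 21.5 CPM against 84.8 and 94.7 CPM) were lower, as were Spred1 (66.4 and 70.4 CPM against 243 and 212 CPM) and Spry2 (4.83 and 4.1 CPM against 17.6 and 20.1 CPM), which inhibit signalling from receptor tyrosine kinases to ERK. The plot of signalling genes and transcription factors shows that the 2 libraries of a type lay close together for each of these genes.

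**Figure D2:**
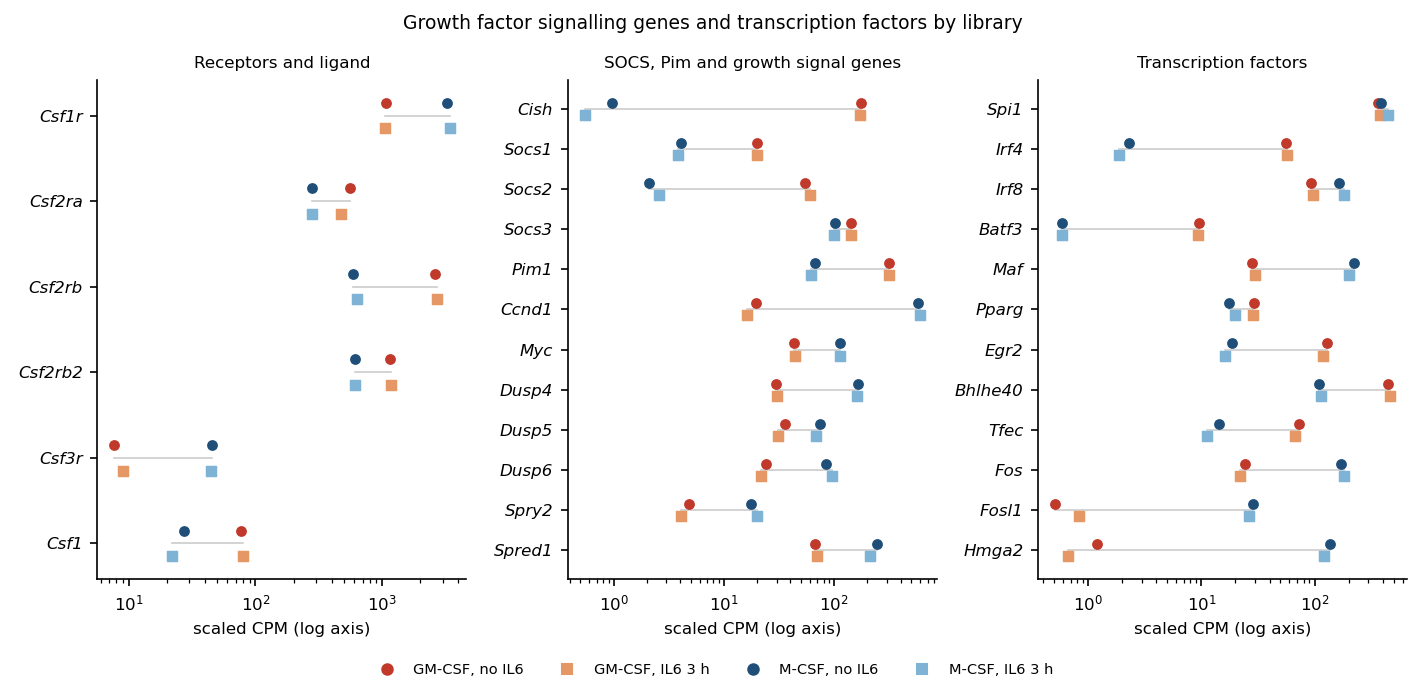
Scaled CPM (log axis) of growth factor receptors, signalling genes and transcription factors in each of the 4 libraries; circles are libraries without IL6 and squares those after 3 h of IL6, red and orange for GM-CSF and dark and light blue for M-CSF, and the grey line spans the values of a gene. Cish had 174 and 172 CPM in the GM-CSF libraries and less than 1 CPM in the M-CSF libraries, and Ccnd1, Fosl1 and Hmga2 showed the opposite order.

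Among 49 transcription factors of myeloid cells, 41 reached 5 CPM, of which 13 were higher and 8 lower in GM-BMDM, the same genes in both pairs. Spi1, which encodes PU.1, the factor that all macrophages need, differed by less than 2-fold (366 and 377 CPM against 384 and 442 CPM). Irf4, a factor of dendritic cells and of alternatively activated macrophages, had 55.4 and 57.6 CPM against 2.31 and 1.86 CPM (log2 ratio 4.59, 95% interval 4.15 to 5.06). Batf3, a factor of conventional dendritic cells, had 9.61 and 9.29 CPM against 0.591 and 0.589 CPM (log2 ratio 4.02, 95% interval 3.16 to 5.05).

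Egr2, an early growth response factor, was higher with 129 and 119 CPM against 18.6 and 16.2 CPM, and Tfec, a macrophage relative of the lysosomal regulator Mitf, with 73.1 and 66.9 CPM against 14.3 and 11.2 CPM. Nr4a3, an orphan nuclear receptor, had 20.01 and 25.5 CPM against 3.33 and 2.27 CPM. Irf8, a factor of monocytes and dendritic cells, had 92.7 and 96.4 CPM against 164 and 183 CPM and did not reach 2-fold (log2 ratios -0.82 and -0.93). Pparg, the nuclear receptor that GM-CSF is known to induce in alveolar macrophages, had 29.2 and 28.5 CPM against 17.4 and 19.9 CPM and was below 2-fold in both pairs (log2 ratios 0.75 and 0.52).

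The lower factors included Maf, a transcription factor of mature macrophages, which had 28 and 29.6 CPM against 225 and 200.4 CPM (log2 ratio -3.0, 95% interval -3.13 to -2.88). Of the AP-1 family, Fos had 24.5 and 22.1 CPM against 170.3 and 182 CPM and Fosl1 had 0.506 and 0.82 CPM against 28.5 and 26.4 CPM (log2 ratio -5.81, 95% interval -6.83 to -4.96). Hmga2, an architectural chromatin protein best known from embryonic and stem cells, had 1.2 and 0.656 CPM against 137 and 121 CPM (log2 ratio -6.84, 95% interval -7.46 to -6.28). In each of these 4 genes the 2 M-CSF libraries lay above the 2 GM-CSF libraries.

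The leading genes were taken by the interval bound nearest to no difference, in the pair where it was lesser, and 12 were named in each direction. Chil3 (ENSMUSG00000040809, chromosome 3, 106147554 to 106167564), the chitinase-like protein Ym1, had 982 and 859 CPM against 0.215 and 0.227 CPM (log2 ratio 12.16, 95% interval 10.80 to 14.03). Rbp4 (chromosome 19, 38116629 to 38125281), the carrier of retinol in plasma, had 976 and 929 CPM against 0.43 and 0.272 CPM (log2 ratio 11.15, 95% interval 10.17 to 12.36). Ccl17 (chromosome 8, 94810453 to 94812036), a chemokine that attracts T cells through CCR4, had 184 and 202 CPM against 0.107 and 0.136 CPM and rested on 2 and 3 counts in the M-CSF libraries (log2 ratio 10.74, 95% interval 8.89 to 13.79). All 3 were at least 184 CPM with GM-CSF and below 0.5 CPM with M-CSF.

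Ccn3, a matricellular protein, had 335 and 326 CPM against 0 and 0 CPM and was at least 2079.9-fold and 2396-fold higher against a floor of 3 counts per library. The checkpoint ligand PD-L2 (Pdcd1lg2) had 22.9 and 26.4 CPM against 0 and 0 CPM, at least 142-fold and 194-fold, and Gja5, the gap junction protein connexin 40, had 18.6 and 20.6 CPM against 0 and 0 CPM, at least 116-fold and 151-fold. These 3 genes had no count in either M-CSF library. Ptx3, a soluble pattern recognition protein, had 69.6 and 60.4 CPM against 0.0537 and 0.227 CPM (log2 ratio 10.34, 95% interval 7.86 to 15.65), and Plet1, a cell surface glycoprotein found on alveolar macrophages and on a class of dendritic cells, had 56.9 and 65 CPM against 0 and 0.272 CPM and was at least 353-fold higher without IL6.

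Among the 12 lower genes with the greatest supported ratio, Cx3cr1 (ENSMUSG00000052336, chromosome 9, 119901616 to 120069879), the fractalkine receptor of monocytes, had 5.15 and 4.42 CPM against 388 and 398 CPM (log2 ratio -6.23, 95% interval -6.52 to -5.96). Col18a1, the collagen from which endostatin is cut, had 1.7 and 1.15 CPM against 188 and 211 CPM (log2 ratio -6.79, 95% interval -7.3 to -6.32). Folr2, a folate receptor of resident macrophages, had 0.092 and 0.273 CPM against 19.4 and 29.7 CPM (log2 ratio -7.72, 95% interval -10.77 to -5.86). The inhibitory lectin receptor Clec12a had 11.9 and 10.8 CPM against 328 and 361 CPM (log2 ratio -4.79, 95% interval -4.97 to -4.61), and the chemokine Cxcl14 had 16.9 and 16.9 CPM against 422 and 491 CPM (log2 ratio -4.65, 95% interval -4.8 to -4.49).

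Genes better known from neurons and other tissues stood in the same list. Adra1a, an adrenergic receptor, had 0.23 and 0.273 CPM against 15.4 and 14 CPM, Cacna1a, a subunit of a voltage-gated calcium channel, had 0.46 and 0.164 CPM against 20.4 and 21.4 CPM, and Pcp4l1, a small protein described in the brain, had 0.414 and 0.656 CPM against 30.2 and 35.5 CPM. Itga9, an integrin chain, had 0.414 and 0.437 CPM against 16.3 and 18.2 CPM. All were below 1 CPM in both GM-CSF libraries.

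Genes known from M-CSF cultures and from macrophages of monocyte origin were mostly lower with GM-CSF. Of 32 listed, 29 reached 5 CPM, 17 were lower and 6 higher, the same genes in both pairs, and the median log2 ratio was -1.62 without IL6 and -1.78 after 3 h. Adgre1, the macrophage surface protein F4/80, had 257 and 269 CPM against 896 and 973 CPM (log2 ratio -1.8, 95% interval -1.85 to -1.76). Stab1, a scavenger receptor of resident macrophages, had 50.04 and 48.2 CPM against 1036 and 1027 CPM (log2 ratio -4.37, 95% interval -4.46 to -4.28), and Itga6, an integrin chain, had 25.4 and 28.7 CPM against 176 and 158 CPM. The 6 genes that were higher included Mrc1, the mannose receptor (363 and 329.6 CPM against 76.8 and 71.5 CPM), Ly6c2, a surface marker of young monocytes (47.7 and 42 CPM against 0.376 and 0.453 CPM), the chemokine receptor Ccr2 (19.8 and 17.9 CPM against 4.62 and 3.13 CPM) and the iron exporter Slc40a1 (32.5 and 35.5 CPM against 11.4 and 11.5 CPM). The higher members thus include genes of monocytes and of resident macrophages.

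Genes of alveolar macrophages and targets of PPAR-gamma were mostly higher: 13 of 22 tested (30 listed) were higher and 1 lower (11 and 1 in both pairs), with a median log2 ratio of 1.14 without IL6 and 1.07 after 3 h. Beside Chil3 and Plet1, Car4, a carbonic anhydrase, had 19.1 and 13.9 CPM against 0.161 and 0.136 CPM (log2 ratio 6.89, 95% interval 5.33 to 9.18), and Siglecf, a sialic acid binding receptor of alveolar macrophages and eosinophils, had 59.2 and 63.5 CPM against 2.36 and 3.76 CPM (log2 ratio 4.65, 95% interval 4.21 to 5.11). The scavenger receptor Marco was the lower member, with 7.17 and 4.75 CPM against 14.7 and 14.6 CPM (log2 ratio -1.04, 95% interval -1.33 to -0.75). Siglecf was the sole of 7 eosinophil markers above 5 CPM in any of the 4 libraries, and the list summed to 60.3 and 64.3 CPM against 7.2 and 7.66 CPM.

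The eosinophil-associated ribonucleases followed the same direction. Ear2 had 64.2 and 50.1 CPM against 0.107 and 0.136 CPM (log2 ratio 9.22, 95% interval 7.37 to 12.27), Ear6 had 74 and 69.1 CPM against 0 and 0.0453 CPM and Rnase2a had 25.1 and 18.9 CPM against 0 and 0 CPM (at least 156-fold and 139-fold higher). These are secreted ribonucleases of a family with near-identical copies, among which the counting may have split reads. Of 13 listed family genes, 8 reached 5 CPM, 4 were higher, Ang with 10.1 and 9.12 CPM against 3.92 and 5.89 CPM among them, and 0 lower; Ang passed in the pair without IL6 alone.

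Alternative activation genes, known from macrophages exposed to interleukin-4, were higher for 13 of 19 tested (26 listed) and lower for 2, with a median log2 ratio of 2.79 without IL6 and 2.87 after 3 h. Mgl2, a galactose-binding lectin, had 72.1 and 82.6 CPM against 1.13 and 1.36 CPM (log2 ratio 6.0, 95% interval 5.38 to 6.69), and the chemokine Ccl22 had 86.8 and 107 CPM against 9.18 and 9.75 CPM (log2 ratio 3.24, 95% interval 3.01 to 3.47). Arg1, the arginase that competes with nitric oxide synthase, had 101 and 75.2 CPM against 5.64 and 7.75 CPM, and Cdh1, the adhesion protein E-cadherin, had 55.1 and 57 CPM against 3.92 and 4.31 CPM. The 2 lower members were Tgm2, a transglutaminase (1176 and 1160.4 CPM against 2897 and 3304 CPM), and Myc. Several members of this list, such as Chil3, Ccl17, Irf4, Mgl2 and Pdcd1lg2, stand also in another list or among the leading genes above, so these counts are not independent of each other.

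Dendritic cell genes showed a wide range. Of 32 listed, 20 reached 5 CPM; 12 were higher and 1 lower in both pairs, and the median log2 ratio was 3.19 without IL6 and 3.61 after 3 h. Itgax (chromosome 7, 128129547 to 128150657), the integrin chain CD11c, had 994 and 986 CPM against 26.1 and 24.9 CPM (log2 ratio 5.25, 95% interval 5.12 to 5.38). Clec9a, a receptor of cross-presenting dendritic cells, had 15.7 and 13.2 CPM against 0.107 and 0.0453 CPM (log2 ratio 7.19, 95% interval 5.33 to 10.24), and Ccr7, which guides migrating dendritic cells to lymph nodes, had 20.2 and 23.8 CPM against 0.215 and 0.136 CPM (log2 ratio 6.55, 95% interval 5.19 to 8.44). H2-DMb2, a chaperone of peptide loading, had 20.6 and 26.6 CPM against 1.5 and 2.22 CPM, and Kmo, an enzyme of tryptophan breakdown, had 6.67 and 6.67 CPM against 0.644 and 0.317 CPM. Cd207, which encodes the lectin langerin, differed in the opposite direction, with log2 ratios of -6.33 without IL6 and -7.47 after 3 h.

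Of 10 markers of conventional dendritic cells, 5 reached 5 CPM in the pair without IL6. All 5 were higher with GM-CSF in both pairs (Clec9a, Ccr7, Fscn1, Ccl22 and Itgae). The median log2 ratio of these 5 genes was 3.23 without IL6 and 5.84 after 3 h. Over the members that reached 5 CPM after 3 h it was 4.98. The values after 3 h of Clec9a, Ccr7 and Itgae rest on few counts in M-BMDM_3h. Fscn1 and Ccl22 had log2 ratios of 3.32 and 3.24 without IL6 and of 3.77 and 3.45 after 3 h. Fscn1, an actin-bundling protein, had 12.8 and 19.2 CPM against 1.29 and 1.41 CPM, and Itgae, the integrin chain CD103, had 6.58 and 7.7 CPM against 0.752 and 0.0453 CPM, with 1 count in M-BMDM_3h. The others stayed below 5 CPM in that pair. The transcription factor Zbtb46 had 3.36 and 4.26 CPM against 0.322 and 0.68 CPM, Flt3, the receptor of their growth factor, had 0.322 and 0.164 CPM against 0.322 and 0.136 CPM and the chemokine receptor Xcr1 had 0.184 and 0 CPM against 0.805 and 0.453 CPM. Cd209a, a lectin of monocyte-derived dendritic cells, had 1.24 and 1.26 CPM against 0.0537 and 0.181 CPM. The 10 markers summed to 152 and 182 CPM against 13.3 and 13.1 CPM. The part of a minority of such cells in the higher dendritic cell and antigen presentation genes was not tested.

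Of the plasmacytoid dendritic cell markers, Tcf4, a transcription factor that other cells express too, was lower (15.3 and 17 CPM against 54.3 and 44.8 CPM), and Siglech had 0 and 0.0546 CPM against 0 and 0.136 CPM. Tcf4 and Bst2 were the only 2 of the 7 markers that reached 5 CPM without IL6. Bst2, which is also in the list of interferon-stimulated effector genes below, did not reach 2-fold (log2 ratios -0.77 and -0.80). Cox6a2, below 5 CPM in that pair, differed in the opposite direction (log2 ratios 0.95 and 3.44). The 7 markers summed to 109 and 114 CPM against 210.4 and 209 CPM.

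The MHC class II pathway presents peptides to helper T cells, and 8 of 15 tested genes (19 listed) were higher in both pairs and 0 lower, and the median log2 ratio was 1.21 without IL6 and 1.09 after 3 h. Ciita, the regulator that switches the class II genes on, had 45.2 and 58.1 CPM against 17.4 and 17.3 CPM (log2 ratio 1.37, 95% interval 1.19 to 1.56). H2-DMa, which loads peptides, had 126 and 126 CPM against 27.9 and 29.2 CPM, and Ifi30, a thiol reductase of lysosomes, had 219 and 232 CPM against 62.5 and 64.7 CPM. The class II chain H2-Aa had 508 and 519.5 CPM against 209 and 235 CPM (log2 ratio 1.28, 95% interval 1.23 to 1.33) and the invariant chain Cd74 had 2039 and 2081 CPM against 876 and 1016 CPM, while H2-Ab1 had 514 and 540.3 CPM against 281 and 326 CPM and stayed below 2-fold. These last 3 genes were named after their values were seen. March1, the ubiquitin ligase that removes class II proteins from the surface, was higher as well, with 97.5 and 88.8 CPM against 10.6 and 9.02 CPM (log2 ratio 3.2, 95% interval 2.99 to 3.41). Of the class I genes and the immunoproteasome, 2 of 22 were higher, a share of 9.09% that is near the 10.8% of all genes: H2-Q6 (48.8 and 43 CPM against 17.6 and 17.1 CPM) and H2-Q7 (54 and 44.4 CPM against 19.97 and 21.9 CPM), which are near-copies of each other.

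Costimulatory and checkpoint genes differed in both directions, with 7 higher and 4 lower of 21 tested (26 listed), 5 and 3 of them in both pairs. Cd274, the checkpoint ligand PD-L1, had 376 and 382 CPM against 41 and 37.9 CPM (log2 ratio 3.19, 95% interval 3.09 to 3.3), and its neighbour Pdcd1lg2 was given above. The inhibitory receptors Cd200r1 (134 and 128 CPM against 44.3 and 36.9 CPM) and Cd200r4 (157 and 154 CPM against 62.8 and 52.5 CPM) were higher. Cd40, which receives signals from T cells, had 8.32 and 9.67 CPM against 47.9 and 53.9 CPM (log2 ratio -2.52, 95% interval -2.76 to -2.29) and was lower, as was Tnfsf9, the ligand of 4-1BB, with 3.59 and 3.17 CPM against 15.6 and 16.6 CPM. Havcr2, the receptor TIM-3, had 50.1 and 47.6 CPM against 124 and 111 CPM.

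Interferon-stimulated genes were lower with GM-CSF in most cases, and none was called higher in either pair. Interferons act on these genes through a complex that includes STAT2 and IRF9 and binds a short element, the ISRE, before the gene. Of 47 listed effector genes, 43 reached 5 CPM, and 34 of these were lower without IL6, 32 of them in both pairs; over all genes tested, 8.64% were lower. The median log2 ratio was -2.14 without IL6 and -2.01 after 3 h. By edgeR, 40 of the 45 analysed members were lower and 1 higher, where 27.4% of all genes analysed were lower and 28.9% higher. Their summed level was 1661 and 1587 CPM against 4248 and 3877 CPM.

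The 4 genes shown here give the ISRE of members with clear differences, and they were chosen for this after their values were seen. Each sequence is from RefSeq (GRCm38.p6), lies before the start of the gene and is written 5′ to 3′ on the strand of the gene, with letters that match the element GAAANNGAAA on either strand in capitals.
Ifit3, chr19:34583353-34583436, plus strand: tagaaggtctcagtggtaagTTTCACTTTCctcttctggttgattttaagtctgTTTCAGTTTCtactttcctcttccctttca
Rsad2, chr12:26456543-26456592, minus strand: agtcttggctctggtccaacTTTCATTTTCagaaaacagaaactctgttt
Isg15, chr4:156200855-156200916, minus strand: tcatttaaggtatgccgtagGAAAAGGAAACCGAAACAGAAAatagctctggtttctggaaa
Oas1g, chr5:120887614-120887651, minus strand: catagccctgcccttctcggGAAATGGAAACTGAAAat

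Ifit3, which binds viral RNA in a complex with its relatives, had 3.45 and 3.82 CPM against 69.1 and 62.2 CPM (log2 ratio -4.32, 95% interval -4.68 to -3.99) and carries 2 separate matches. Rsad2, the antiviral enzyme viperin, had 17.6 and 15.9 CPM against 103 and 82.2 CPM (log2 ratio -2.54, 95% interval -2.71 to -2.38). Isg15, a ubiquitin-like protein, had 8.74 and 8.96 CPM against 46 and 41.1 CPM (log2 ratio -2.4, 95% interval -2.63 to -2.17), and Oas1g, a sensor of double-stranded RNA, had 22.1 and 19.4 CPM against 50.9 and 49 CPM (log2 ratio -1.2, 95% interval -1.36 to -1.04). In each of the 4 genes both GM-CSF libraries lay below both M-CSF libraries.

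A promoter of 250 bases was at hand for 34 of the tested effector genes, and 18 of these (52.9%) held the ISRE letters. The listed genes are known to answer interferon, which acts through the ISRE. A high share therefore follows from the choice of the list and does not bear on the difference between the macrophage types. The same 34 promoters were also above the share of all genes for the other 2 elements searched, with the STAT element TTCNNNGAA in 17.6% and the AP-1 element TGANTCA in 26.5%, against 7.14% and 5.43%. For the ISRE, over all 8253 tested genes with such a promoter the share was 3.42%, over the genes higher in both pairs 3.60% and over those lower in both pairs 7.09%. Without the interferon-stimulated effector genes, a split chosen after seeing the data, the last share was 4.45%. Of the 18 with a match, 16 were lower in both pairs, with a median log2 ratio of -2.46, and of the 16 without one, 9 were lower, with a median of -1.61. Members of 1 cluster share ancestry, so these promoters are not independent of each other. A match describes letters and is no measured binding site. The STAT element was found in 8.44% of the higher and 5.85% of the lower genes. The window before the RefSeq start of Cish (chromosome 9, 107296409 to 107296658) held no match to these letters. That window lies inside the gene span given above for Cish, and the bases before that span were not searched. The AP-1 element was found in 8.30% of the higher and 8.16% of the lower genes. The ISRE and STAT elements can overlap where their GAA letters coincide, and both strands were searched in each case.

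**Figure D3:**
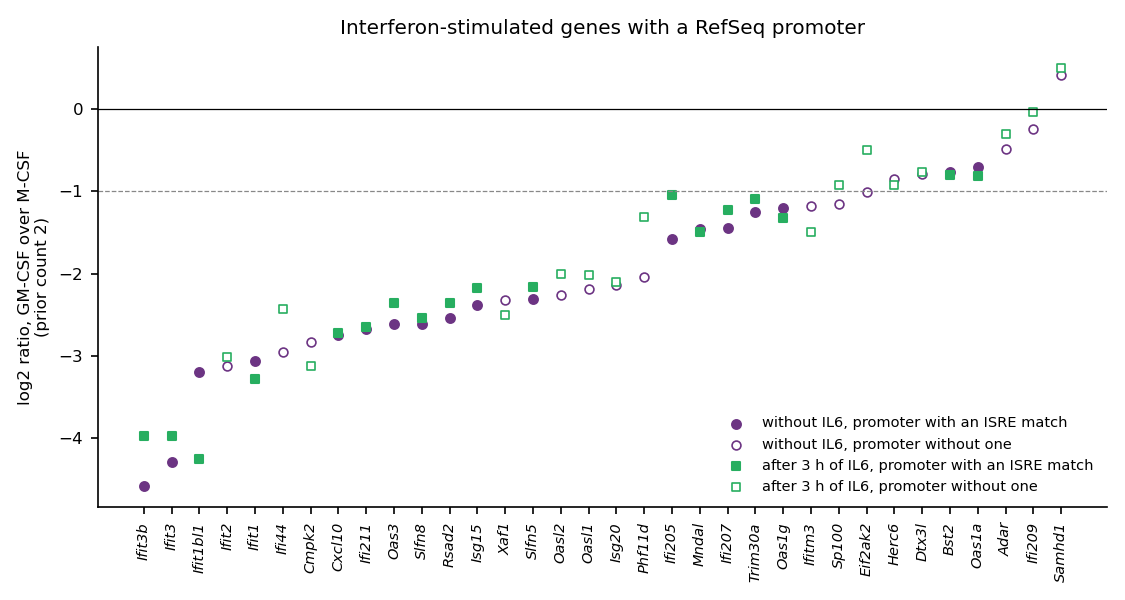
Log2 ratio (prior count of 2, vertical axis) of the 34 interferon-stimulated genes with a RefSeq promoter, in order of the pair without IL6; circles (purple) are the pair without IL6, squares (green) the pair after 3 h of IL6, and filled symbols mark promoters with an ISRE match. The dashed line is a 2-fold lower level; 16 of the 18 genes with a match and 9 of the 16 without one were counted as lower in both pairs.

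Ifit1 (9.15 and 7.1 CPM against 77.3 and 70.2 CPM), Ifit2 (9.24 and 7.1 CPM against 81.3 and 57.9 CPM), Ifit3b (0.644 and 0.71 CPM against 17.6 and 12.7 CPM) and Ifit1bl1 (1.15 and 0.546 CPM against 11.3 and 12.4 CPM), relatives of Ifit3 in the same cluster on chromosome 19, were lower as well. Rtp4, a regulator of interferon responses, had 8.74 and 7.21 CPM against 79.2 and 69.7 CPM (log2 ratio -3.18, 95% interval -3.4 to -2.96). Ifi204 (36 and 35.8 CPM against 166 and 146 CPM) and Ifi211 (19.7 and 17.3 CPM against 127 and 109 CPM) belong to the DNA-binding p200 family, whose copies on chromosome 1 resemble each other, and Cxcl10, a chemokine for T cells, had 8.14 and 6.28 CPM against 55.1 and 42.1 CPM. Ifi207 (85.9 and 77.3 CPM against 234 and 182 CPM) and Mndal (31.8 and 24.4 CPM against 87.8 and 68.9 CPM) of the p200 family were lower too.

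Of the upstream genes of the interferon system, 8 of 27 tested (31 listed) were lower (29.6%, against 8.64% of all genes), 6 of them in both pairs. Another 2 were higher (7.41%, below the 10.8% of all genes). Irf7, the factor that amplifies interferon production, had 6.58 and 6.56 CPM against 64 and 61.3 CPM (log2 ratio -3.28, 95% interval -3.54 to -3.03), and Irf9, the DNA-binding part of the ISRE complex, had 25.2 and 23.4 CPM against 55.1 and 61 CPM. Ifnar1, the first chain of the receptor for type I interferons, had 107 and 118 CPM against 311 and 315 CPM (log2 ratio -1.54, 95% interval -1.61 to -1.47). The RNA sensors Dhx58 (12.9 and 13.5 CPM against 67.5 and 73.9 CPM) and Ddx58 (28.1 and 27.7 CPM against 93.5 and 82.5 CPM) were lower. Tmem173, the adaptor STING, was higher, with 70.4 and 69.9 CPM against 26.5 and 30.4 CPM, as was Socs1. Ifnb1, the interferon-beta gene, was looked at after its values were seen and had 0 and 0 counts against 0 and 2 in the order given above.

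Guanylate-binding proteins and immunity-related GTPases, which are induced mainly by interferon-gamma, were lower for 5 and higher for 1 of 11 tested (18 listed). These are 45.5% lower and 9.09% higher, the latter near the 10.8% of all genes. Tgtp2 had 1.75 and 2.73 CPM against 14 and 11.7 CPM and Igtp had 9.15 and 10.2 CPM against 28 and 28 CPM. Gbp6, the higher member, had 13.7 and 7.65 CPM against 1.88 and 1.63 CPM, though these genes too have near-identical copies.

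Chemokine ligands differed in both directions, and Ccl6 had the second highest ratio among them after Ccl17. Ccl6 (ENSMUSG00000018927, chromosome 11, 83587882 to 83593087), a chemokine of the CC class, had 20973 and 22131 CPM against 239.5 and 265 CPM (log2 ratio 6.45, 95% interval 6.41 to 6.5). Of 27 listed ligands 19 reached 5 CPM, 5 were higher and 8 lower, the same in both pairs. Ccl3, an attractant of monocytes and T cells, had 101 and 109 CPM against 45.8 and 36.6 CPM, and Cxcl3, an attractant of neutrophils, had 95 and 89.7 CPM against 31.8 and 29.2 CPM.

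The lower ligands included attractants of monocytes and of neutrophils. Ccl7 had 11.1 and 13.8 CPM against 138 and 118 CPM (log2 ratio -3.63, 95% interval -3.82 to -3.44), Ccl12 had 1.24 and 1.53 CPM against 9.5 and 9.88 CPM and Cxcl2 had 24 and 21.7 CPM against 92.1 and 75.1 CPM. Ccl7 and Ccl12 act through the receptor CCR2, and Cxcl2 through CXCR2, as Cxcl3 does. Ccl2, the main ligand of CCR2, was named after its values were seen and had 101 and 89.2 CPM against 321 and 278 CPM (log2 ratio -1.67, 95% interval -1.74 to -1.6). Cxcl14 and Cxcl10 were given above.

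The receptors of chemoattractants divided as well, with 8 higher and 5 lower of 17 tested (27 listed), the same in both pairs. Ccr1, a receptor of Ccl3 and Ccl6, had 244 and 255 CPM against 17.1 and 17 CPM (log2 ratio 3.83, 95% interval 3.67 to 4.0). Cmklr1, the receptor of chemerin, had 266 and 286 CPM against 22.9 and 21.2 CPM (log2 ratio 3.54, 95% interval 3.4 to 3.68), and Ltb4r1, the receptor of leukotriene B4, had 6.67 and 6.56 CPM against 0.215 and 0.0453 CPM. The lower receptors included those of complement fragments: C5ar1 had 77.7 and 68.8 CPM against 1043 and 1037 CPM (log2 ratio -3.75, 95% interval -3.82 to -3.67) and C3ar1 had 222 and 219 CPM against 1067 and 1066 CPM (log2 ratio -2.26, 95% interval -2.31 to -2.22). S1pr1, a receptor of sphingosine 1-phosphate, had 8.65 and 6.72 CPM against 90.2 and 86.2 CPM.

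Of 18 tested genes of inflammatory cytokines (30 listed), 9 were lower and 5 higher, 8 and 4 of them in both pairs. Inhba, the activin A subunit, had 460.1 and 427 CPM against 6.01 and 3.67 CPM (log2 ratio 6.26, 95% interval 5.99 to 6.54) and was the member with the highest ratio. Il1a and Il1b, neighbouring genes of the 2 forms of interleukin-1, differed in opposite directions, with 99.5 and 91.1 CPM against 33.5 and 23.5 CPM for Il1a and 81.5 and 68.4 CPM against 259.8 and 246 CPM for Il1b. Ptgs2, the inducible cyclooxygenase, had 7.59 and 6.34 CPM against 38 and 32 CPM, and Vegfa, the growth factor of blood vessels, had 67.4 and 60.7 CPM against 260.3 and 221 CPM. Acod1, which makes itaconate, had 535 and 512 CPM against 1548 and 1377 CPM. Tnf, the tumour necrosis factor gene, was named after its values were seen and had 53.9 and 51.9 CPM against 169 and 145 CPM (log2 ratio -1.65, 95% interval -1.75 to -1.55).

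Sensors of microbial products were lower for 8 (30.8%) and higher for 2 (7.69%, below the 10.8% of all genes) of 26 tested (28 listed), the same in both pairs. The endotoxin receptor Tlr4 was higher (233 and 210.1 CPM against 100.3 and 90.9 CPM), while its co-receptor Cd14 was lower (491 and 522 CPM against 1506 and 1797 CPM; log2 ratio -1.62, 95% interval -1.65 to -1.58). Nlrp3, an inflammasome sensor, had 77.2 and 81.7 CPM against 344 and 326 CPM (log2 ratio -2.15, 95% interval -2.23 to -2.08), and Mefv, the sensor pyrin, had 2.21 and 1.8 CPM against 14 and 12.7 CPM. Tlr5, the receptor of flagellin, had 0.92 and 1.64 CPM against 8.05 and 8.48 CPM.

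The C-type lectin receptors were split almost evenly, with 6 higher and 5 lower of 16 tested (26 listed). The receptors of fungal glucans and mannans were higher, Clec7a (dectin-1) with 1428 and 1354 CPM against 128 and 136 CPM (log2 ratio 3.47, 95% interval 3.41 to 3.53) and Clec4n (dectin-2) with 1051 and 1139.6 CPM against 26.7 and 28.1 CPM (log2 ratio 5.3, 95% interval 5.17 to 5.43). Ly75, the endocytic receptor DEC-205, had 81.7 and 93.4 CPM against 7.09 and 5.8 CPM. Clec4e (mincle), a receptor of mycobacterial glycolipid, was lower with 208 and 187 CPM against 1095 and 1050.1 CPM (log2 ratio -2.39, 95% interval -2.44 to -2.35), and so were Clec4a1 (2.02 and 2.35 CPM against 107 and 112 CPM) and Clec4a3 (8.09 and 7.38 CPM against 23.5 and 19.6 CPM), which are near-copies in the same cluster.

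Receptors of antibodies differed in opposite directions. Of 8 tested Fc receptor genes (13 listed) 2 were higher and 1 lower. Fcgr1, which binds single antibodies tightly, was lower (63.9 and 66.3 CPM against 255 and 278 CPM; log2 ratio -2.0, 95% interval -2.08 to -1.91). Fcgr3, the low-affinity activating receptor (747 and 760.5 CPM against 246 and 278 CPM), and Fcgr2b, the inhibitory receptor (505 and 480.2 CPM against 84.8 and 74.1 CPM; log2 ratio 2.57, 95% interval 2.5 to 2.65), were higher. Among the TAM kinases, which bind dying cells, Mertk had 71.2 and 69.5 CPM against 7.68 and 9.79 CPM (log2 ratio 3.21, 95% interval 2.97 to 3.47) and Tyro3 had 23.4 and 23.1 CPM against 0.269 and 0.0907 CPM. Their ligands differed in opposite directions, Gas6 with 73 and 69.5 CPM against 426 and 444 CPM and Pros1 with 73.3 and 69.8 CPM against 22.1 and 20.3 CPM.

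Mfge8, a secreted bridge between dying cells and phagocytes, had 3384 and 3193 CPM against 124 and 153 CPM (log2 ratio 4.77, 95% interval 4.71 to 4.83). Over the whole list of uptake receptors, 7 were higher and 5 lower of 25 tested (28 listed), with a median log2 ratio of -0.03 without IL6 and -0.12 after 3 h. Cd163, the haemoglobin receptor, was lower with 10.2 and 10.4 CPM against 29.5 and 28.6 CPM.

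Of 12 tested complement and apolipoprotein genes (17 listed), 7 were lower and 2 higher, with a median log2 ratio of -2.01 without IL6 and -2.06 after 3 h. Apoe (chromosome 7, 19696109 to 19699188), which carries lipid out of macrophages, had 499 and 452 CPM against 4690.0 and 5363 CPM (log2 ratio -3.23, 95% interval -3.26 to -3.2). The subunits of C1q, the first component of the classical pathway, were lower together, for example C1qb with 221 and 214 CPM against 1119.5 and 1305 CPM and C1qc with 130.3 and 131 CPM against 667 and 768 CPM. C1ra, a protease of C1 (28.9 and 25.2 CPM against 6.6 and 6.89 CPM), and Cfb, a protease of the alternative pathway (34.4 and 31.8 CPM against 10.4 and 9.02 CPM), were higher.

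Integrin and adhesion genes differed in both directions. Of 26 listed, 23 reached 5 CPM, with 8 higher and 5 lower in both pairs. Beside Itgax, the collagen-binding chain Itga1 was higher (45.9 and 51 CPM against 4.13 and 3.45 CPM; log2 ratio 3.47, 95% interval 3.14 to 3.83). The lower chains Itga4 (53.7 and 55.7 CPM against 202 and 162 CPM), Itga5 (232 and 225 CPM against 642 and 688 CPM) and Itgav (58.8 and 58.9 CPM against 356 and 314 CPM; log2 ratio -2.6, 95% interval -2.69 to -2.51) bind fibronectin and related ligands. Fn1, the gene of fibronectin itself, was higher, with 196 and 163 CPM against 14.8 and 14.5 CPM (log2 ratio 3.72, 95% interval 3.55 to 3.9). Itgam, the chain CD11b, did not reach 2-fold (1661 and 1701 CPM against 1021 and 1034 CPM).

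Proteases that act outside the cell were higher for 12 of 24 tested genes (29 listed, inhibitors and clotting factors included) and lower for 3. Mmp12 (ENSMUSG00000049723, chromosome 9, 7344381 to 7369499), the macrophage elastase, had 11311 and 11504 CPM against 462 and 444 CPM (log2 ratio 4.61, 95% interval 4.58 to 4.65). Mmp19 had 656 and 670.1 CPM against 24.6 and 27.1 CPM (log2 ratio 4.74, 95% interval 4.6 to 4.87), Mmp2, a gelatinase, had 42.7 and 45.3 CPM against 1.45 and 1.36 CPM, and Mmp8, the collagenase, had 513 and 555 CPM against 9.61 and 8.34 CPM (log2 ratio 5.74, 95% interval 5.53 to 5.96). Mmp9, the other gelatinase, differed in the opposite direction, with 3.36 and 2.24 CPM against 53 and 57.4 CPM (log2 ratio -3.98, 95% interval -4.34 to -3.64), as did Adam8, a membrane protease, with 299 and 297 CPM against 2454 and 2565 CPM (log2 ratio -3.04, 95% interval -3.07 to -3.0).

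Mmp8 and Mmp9 are both known from the granules of neutrophils, and the 14 neutrophil markers summed to 545 and 587 CPM against 110.2 and 114 CPM, of which Mmp8 made up most in the GM-CSF libraries. The granule genes Camp, Elane and Mpo had 1 and 10 counts against 2 and 6, 5 and 8 counts against 0 and 0 and 1 and 2 counts against 1 and 1, in that order. S100a8 had 8.88 and 7.43 CPM against 1.5 and 2.18 CPM, and Ly6g had 0 and 0 CPM against 0 and 0 CPM. Cxcr2, the chemokine receptor of neutrophils, had 0.69 and 0.874 CPM against 0.322 and 0.136 CPM.

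Cathepsins and other lysosomal genes were higher for 13 of 32 tested (33 listed) and lower for 1 (11 and 1 in both pairs), with a median log2 ratio of 0.83 without IL6 and 0.65 after 3 h. Ctsk, the collagen-degrading cathepsin of osteoclasts, had 114 and 126 CPM against 8.86 and 8.89 CPM (log2 ratio 3.68, 95% interval 3.45 to 3.92), and Acp5, the acid phosphatase TRAP, had 329 and 317 CPM against 18.3 and 19.4 CPM (log2 ratio 4.17, 95% interval 4.01 to 4.33). Atp6v0d2, a subunit of the proton pump, had 847 and 778 CPM against 28.9 and 27.6 CPM (log2 ratio 4.87, 95% interval 4.75 to 5.0). The abundant protease Ctsd had 36474 and 36011 CPM against 10105 and 11867 CPM (log2 ratio 1.85, 95% interval 1.84 to 1.86), and Psap, the precursor of sphingolipid activators, had 18906 and 17469.8 CPM against 9017 and 9442 CPM and was counted in the pair without IL6 alone (log2 ratios 1.07 and 0.89). Acp2, a second acid phosphatase, was the lower member, with 148 and 151 CPM against 311 and 328 CPM.

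The genes Ctsk, Acp5 and Atp6v0d2, are also markers of osteoclasts, and of the 11 tested genes of osteoclasts and cell fusion (15 listed) 5 were higher and 2 lower. Dcstamp, which is needed for macrophages to fuse, had 68.1 and 70.3 CPM against 11.1 and 11.8 CPM (log2 ratio 2.62, 95% interval 2.4 to 2.83), and Car2, the carbonic anhydrase of bone resorption, had 21.7 and 22.4 CPM against 2.85 and 2.45 CPM. Tnfrsf11a (chromosome 1, 105780718 to 105847981), the receptor RANK through which osteoclasts are induced, was lower, with 17.5 and 18.1 CPM against 105 and 104 CPM (log2 ratio -2.59, 95% interval -2.75 to -2.43).

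Enzymes of arginine and tryptophan metabolism were higher for 7 of 12 tested (16 listed) and lower for 2. Slc7a2, a transporter of arginine, had 682 and 662 CPM against 209.9 and 188 CPM, Ass1, which rebuilds arginine from citrulline, had 376 and 406 CPM against 95.3 and 118 CPM, and Kynu, an enzyme of the kynurenine pathway, had 22.7 and 26.6 CPM against 0.376 and 0.181 CPM (log2 ratio 5.91, 95% interval 4.86 to 7.24). Odc1, which makes polyamines from the product of arginase, was lower with 148 and 148 CPM against 622 and 619.6 CPM (log2 ratio -2.08, 95% interval -2.13 to -2.02).

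Among enzymes that make lipid mediators, Alox5, the first of the leukotriene branch, had 41 and 39.3 CPM against 10.9 and 10.1 CPM and Ltc4s, which makes leukotriene C4, had 50.3 and 46 CPM against 7.09 and 7.62 CPM (log2 ratio 2.83, 95% interval 2.56 to 3.1). Of the prostaglandin branch, Ptgs1 was higher (206 and 206 CPM against 86.9 and 83.7 CPM), while Ptgs2, Ptges (12.5 and 9.94 CPM against 44 and 45.8 CPM) and Hpgds (14.6 and 13.4 CPM against 57.4 and 48 CPM), which make prostaglandins E2 and D2 from its product, were lower. In all, 5 were higher and 3 lower of 15 tested (19 listed).

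Lipid synthesis genes were higher or below 2-fold. Of the sterol pathway, 7 of 23 tested (24 listed) were higher (30.4%) and 0 lower without IL6, and 4 of them were higher in both pairs (17.4%, against 9.18% of all genes). Dhcr7, which makes cholesterol in the last step of 1 branch, had 135 and 133 CPM against 15.9 and 18.7 CPM (log2 ratio 3.08, 95% interval 2.91 to 3.26), and Mvd, an enzyme of the mevalonate part, had 157 and 160.3 CPM against 26.5 and 35.4 CPM. Of the fatty acid genes, 6 of 18 tested (19 listed) were higher and 0 lower. Scd1, the desaturase that makes oleic acid, had 187 and 219 CPM against 10.9 and 12.2 CPM (log2 ratio 4.1, 95% interval 3.9 to 4.31), its relative Scd2 had 463 and 526 CPM against 80.3 and 87.2 CPM, and Lpin1, a phosphatase of triglyceride synthesis, had 61.4 and 62.1 CPM against 3.97 and 4.17 CPM.

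Of the genes of cholesterol export 2 of 13 tested (14 listed) were higher and 3 lower. Abcg1 had 376 and 353 CPM against 16.3 and 16.8 CPM (log2 ratio 4.53, 95% interval 4.36 to 4.7), Abca9 had 5.2 and 6.01 CPM against 14.8 and 14.7 CPM and Abcb4 had 0.552 and 1.42 CPM against 34 and 41.4 CPM. Abcg1 was thus higher, and Abca9 and Abcb4 were lower. Soat1, which stores cholesterol as ester, was higher with 549.7 and 594 CPM against 200.1 and 199.7 CPM.

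Glycolysis and hypoxia genes had 9 lower (33.3%, against 8.64% of all genes) and 0 higher of 27 tested (29 listed), the same 9 in both pairs, and a median log2 ratio of -0.54 without IL6 and -0.60 after 3 h. No enzyme of the central pathway from hexokinase to lactate dehydrogenase was among them. Egln3, a hydroxylase of the hypoxia response, had 1.15 and 2.19 CPM against 11.9 and 20.4 CPM, Bnip3, a protein of mitochondrial removal, had 15.2 and 16.2 CPM against 43.6 and 44 CPM, and Slc16a3, the lactate exporter, had 106 and 106 CPM against 274 and 324 CPM. Ankrd37 had 1.06 and 0.983 CPM against 5.16 and 5.17 CPM, and Vegfa, given above, belongs to the same list.

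Of 15 tested iron genes 1 was higher (6.67%), Slc40a1, and 2 were lower, Slc11a1, the metal transporter of phagosomes (160.0 and 160.1 CPM against 459.7 and 512 CPM), and Cd163 (13.3% lower). These shares rest on too few genes to be read apart from those over all genes. The ferritin chain Fth1 had 22337 and 21851 CPM against 15649 and 18566 CPM and stayed below 2-fold. Of 14 NRF2 targets 3 were higher (21.4%), among them the quinone reductase Nqo1 (24.3 and 28 CPM against 9.4 and 7.21 CPM) and the glutathione transferase Gstm1 (460.1 and 464 CPM against 142 and 163 CPM), and 1 was lower (7.14%), Osgin1 (18.1 and 18.5 CPM against 39.6 and 44.3 CPM).

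Among cell cycle genes some were higher with GM-CSF, unlike Ccnd1. Of 34 genes, which were all tested, 10 were higher (29.4%) and 0 lower without IL6, and 7 were higher in both pairs (20.6%). With total-count scaling 6 were higher without IL6. The median log2 ratio was 0.64 without IL6 and 0.55 after 3 h. Among the higher genes were Mcm7, a part of the replicative helicase (45.8 and 49.7 CPM against 10.7 and 15.8 CPM; log2 ratio 2.1, 95% interval 1.88 to 2.33), Cdc45, which activates it (12.2 and 12.5 CPM against 2.79 and 3.4 CPM), Ccne1, cyclin E1 (16.9 and 16.2 CPM against 3.38 and 3.9 CPM; log2 ratio 2.32, 95% interval 1.93 to 2.73), and Rrm2, which supplies nucleotides (62.3 and 66.8 CPM against 18 and 21.6 CPM).

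Secreted growth factors and matrix proteins were higher for 12 and lower for 7 of 24 tested (31 listed), 11 and 6 of them in both pairs. Spp1, osteopontin, had 17075 and 15983 CPM against 4460.3 and 4442 CPM (log2 ratio 1.94, 95% interval 1.93 to 1.95), and Gpnmb, a transmembrane glycoprotein also known as osteoactivin, had 17423 and 16513 CPM against 6359 and 6715 CPM (log2 ratio 1.45, 95% interval 1.44 to 1.46). The platelet-derived growth factors differed in opposite directions, Pdgfb with 9.11 and 8.41 CPM against 201 and 203 CPM (log2 ratio -4.46, 95% interval -4.68 to -4.26) and Pdgfc with 15.6 and 15.7 CPM against 1.56 and 1.09 CPM (log2 ratio 3.32, 95% interval 2.77 to 3.92). Pltp, which transfers phospholipids between lipoproteins, had 30.4 and 27.9 CPM against 245 and 282 CPM, and Gdf3, a member of the TGF-beta family, had 1.06 and 1.97 CPM against 18.7 and 19.2 CPM.

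The Ms4a genes, membrane proteins in a cluster on chromosome 19, had no higher member. Of 13 listed, 6 reached 5 CPM and 5 were lower in both pairs, with a median log2 ratio of -3.32 without IL6 and -3.21 after 3 h. Ms4a7 had 33.1 and 30.4 CPM against 206 and 216 CPM (log2 ratio -2.64, 95% interval -2.76 to -2.52), Ms4a6c had 17.3 and 14.4 CPM against 159 and 158 CPM, Ms4a6b had 2.02 and 2.02 CPM against 41.7 and 34.8 CPM and Ms4a14 had 3.22 and 3.17 CPM against 36.1 and 25.7 CPM. Near-identical copies in the cluster make the level of a given member less certain than that of the group.

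The number of genes that differed in each list is shown in the plot of list counts. Under the 4 other scalings tried, no pathway list turned from mostly higher to mostly lower or the reverse. With total-count scaling the lectin receptors (6 and 6), the uptake receptors (6 and 6) and the NRF2 targets (3 and 3) had equal numbers of higher and lower genes. With upper-quartile scaling 4 genes of the growth factor receptor list were higher, Csf2ra and Csf2rb2 among them.

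**Figure D4:**
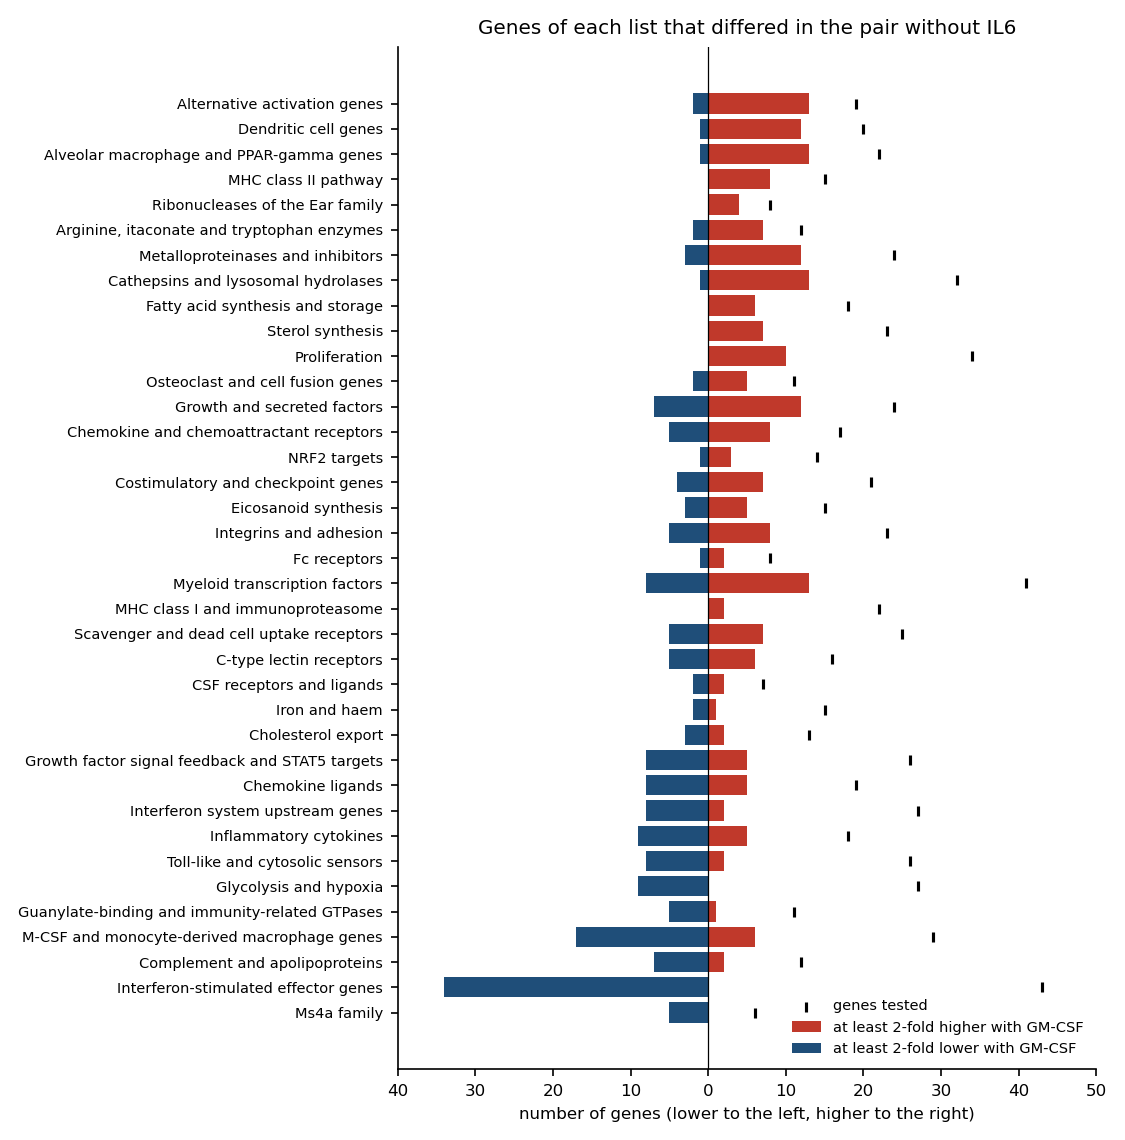
Number of genes of each of the 37 lists that were at least 2-fold higher (red, to the right) or lower (blue, to the left) in GM-BMDM than in M-BMDM without IL6; black ticks give the number of genes tested, and lists are ordered by the share that was higher minus the share that was lower. Alternative activation genes (13 higher, 2 lower) stand at the top, and interferon-stimulated effector genes (34 lower) near the bottom.

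Neighbouring genes at times differed together. Along the chromosomes, 17 runs of at least 3 neighbouring protein-coding genes were higher in both pairs (60 genes) and 9 runs were lower (31 genes), out of 13016 such genes analysed. The longest lower run held 6 genes of the p200 family on chromosome 1, from 173723427 to 174031810 (GRCm38). The longest higher run held Rnase2a, Ear6, Mettl17, Slc39a2, Ndrg2 and Arhgef40 on chromosome 14, from 51255262 to 52006251, where the ribonucleases lie beside genes of other families.

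A run of 5 genes on chromosome 19, from 29321344 to 29606829, held both PD-1 ligands together with Insl6, Plgrkt and Ric1. Insl6, a relative of insulin, had 12.4 and 14.5 CPM against 3.01 and 2.95 CPM, Plgrkt, a receptor of plasminogen, had 53.9 and 48 CPM against 21.5 and 20.6 CPM and Ric1 had 104 and 103 CPM against 30.6 and 30.7 CPM. A run of 3 on chromosome 1, from 40074079 to 40367562, held receptors of the interleukin-1 family: the decoy receptor Il1r2 with 36 and 32.8 CPM against 4.51 and 3.67 CPM, the signalling receptor Il1r1 with 7.4 and 7.21 CPM against 2.79 and 2.58 CPM and the interleukin-36 receptor Il1rl2 with 66.7 and 71.1 CPM against 4.83 and 4.13 CPM. Whether such runs are more frequent than gene order alone would give was not tested.

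Several lists of markers of other blood cells differed between the types, as the plot of marker lists shows. In GM-BMDM and GM-BMDM_3h the mast cell and basophil list summed to 92.7 and 97.2 CPM and the progenitor list to 123 and 131 CPM. Kit stands in both lists and made up most of these sums. Kit, the stem cell factor receptor of mast cells and progenitors, had 83.3 and 86.6 CPM against 4.89 and 3.76 CPM (log2 ratio 4.09, 95% interval 3.79 to 4.41), while the mast cell genes Cpa3 and Mcpt8 had 1.01 and 1.04 CPM against 0 and 0 CPM and 3 and 3 counts against 1 and 4. Of the stem and progenitor markers, Sox4 had 16.8 and 18.7 CPM against 6.55 and 5.12 CPM, Cd34 had 12 and 14.7 CPM against 6.71 and 6.57 CPM and Myb had 0.736 and 0.546 CPM against 0.107 and 0.136 CPM. Vwf, known from platelets and vessel walls, had 444 and 473 CPM against 171 and 174 CPM (log2 ratio 1.38, 95% interval 1.32 to 1.44), and Itga2b, the platelet integrin, had 15.9 and 14.7 CPM against 0.537 and 0.725 CPM, while Gp9 of platelets had 14 and 12 counts against 0 and 0. Pdgfra, a stromal receptor, had 5.01 and 6.12 CPM against 0.644 and 0.68 CPM, and Lum, a stromal matrix gene, had 7 and 4 counts against 9 and 5. Of the 4 stromal markers that reached 5 CPM without IL6, 1 was higher and 1 lower. The collagen gene Col1a1 had log2 ratios of -1.46 and -0.50. The 11 stromal markers summed to 50.45 and 48.89 CPM against 52.41 and 43.12 CPM. The part of rare cells of these kinds in the differences between the cultures was not tested.

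**Figure D5:**
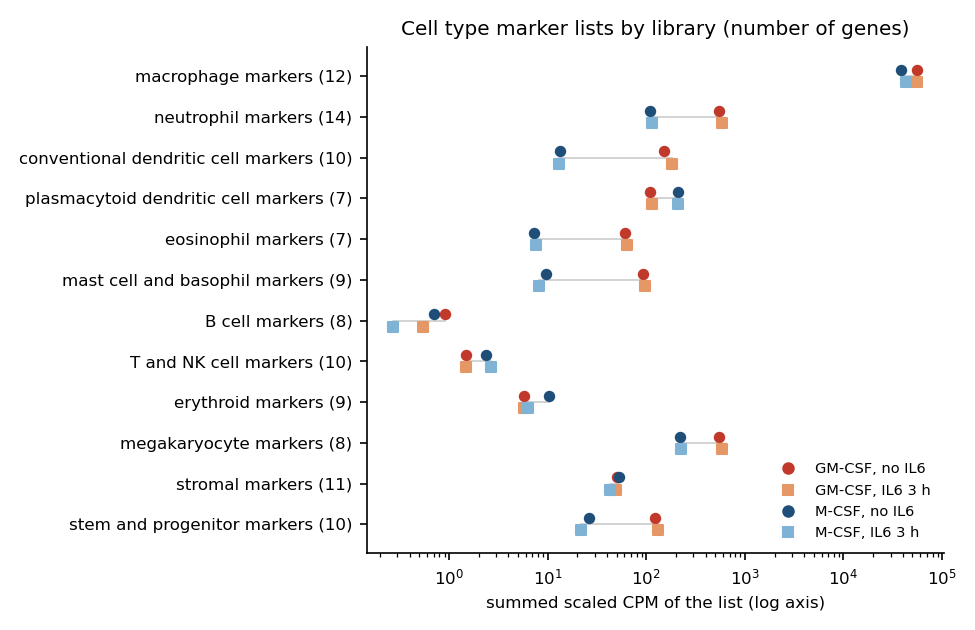
Summed scaled CPM (log axis) of 12 marker lists in the 4 libraries, with the number of genes of each list in brackets; colours and symbols are those of the plot of signalling genes. Macrophage markers summed to 38101 CPM or more in every library, and each other list stayed at or below 587 CPM. The neutrophil, conventional dendritic cell, eosinophil, mast cell, megakaryocyte and progenitor lists were higher in both GM-CSF libraries than in both M-CSF libraries. The macrophage list had the same order. In the GM-CSF libraries Kit made up most of both the mast cell and the progenitor sums, and Siglecf most of the eosinophil sum. Mmp8 made up most of the neutrophil sum there, and Vwf most of the megakaryocyte sum.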

How the data were processed

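RNA from whole cultures was sequenced in 6 libraries, 1 for each of 6 groups, and 4 of them were compared here. The authors deposited the values as estimated counts per gene, unscaled, and 24.7% to 27.7% of the values above 0 were not whole. Per the submitters' processing notes, HISAT2, StringTie, DESeq2 (no versions) and the build GRCm38 were used. The sources used here give neither the annotation nor the counter or its strand setting, so reads of overlapping or antisense genes may not be told apart.

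From these counts, 742 of 56278 rows without a gene name, which held 0.24% to 0.522% of a library's counts, were set aside. Counts were rounded to whole numbers and scaled by TMM over the 6 libraries (edgeR 4.0.16 in R 4.3.3), and genes with at least 1 CPM in at least 1 library were kept. The 4 libraries held 24134374, 20234880, 18511777 and 22624458 counts (GM-BMDM, GM-BMDM_3h, M-BMDM, M-BMDM_3h).

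Each pair ratio has an exact 95% interval, from the Clopper-Pearson interval of 1 library's share of the gene's counts. A gene was called at a ratio of at least 2-fold, an interval clear of no difference and at least 5 scaled CPM in the higher library. A library at 0 was set to a floor of 3 counts, which gives a lower bound of the fold. List medians used a prior count of 2 and, in each pair, the members that reached 5 CPM in that pair, unless the genes are named. The second test was edgeR's quasi-likelihood test with Benjamini-Hochberg adjustment in 1 fit of the 6 libraries, with terms for cell type and for 3 h and 24 h of IL6. Script steps were tested on simulated counts. Alternatives used DESeq2 1.42.0, limma 3.58.1, other scalings, limits and fits.

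The gene lists (37 of pathways, 12 of markers) and the comparison itself were chosen with earlier results of these data known. Named were the 12 genes per direction with the greatest supported ratio, up to 5 genes per list and direction, a set of key genes and markers, the 8 genes per direction with the largest difference in CPM, genes with unlike ratios in the 2 pairs, and the 8 longest chromosomal runs. Promoter sequences are from RefSeq (GRCm38.p6), 250 bases before a gene's RefSeq start, and were searched on both strands.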

Additional observations from a re-analysis of the deposited data

Results flagged for a closer look

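For 2 named genes the libraries without IL6 and those after 3 h of IL6 gave opposite directions, and this difference between the pairs was not tested. Entpd4, an enzyme that splits nucleotides, had 30.9 and 17.8 CPM against 12.3 and 40.6 CPM, so that the log2 ratio of the 3 h pair minus that of the pair without IL6 was -2.50 (with a prior count of 2). Its near-identical neighbour Entpd4b had 30.1 and 47.3 CPM against 44.2 and 15.5 CPM, the reverse order. Summed over the 2 genes, the level was 61.0 and 65.1 CPM against 56.5 and 56.0 CPM, with log2 ratios of 0.11 (95% interval -0.01 to 0.23) and 0.22 (0.10 to 0.33). The sum was chosen after seeing the data.

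Srp54c, a copy of the gene of a signal recognition particle subunit, had 9.29 and 0 CPM against 0 and 6.17 CPM, which is at least 57.7-fold higher without IL6 and at least 37.6-fold lower after 3 h against a floor of 3 counts. The difference of -12.29 between its 2 pair ratios on the log2 scale is set by the prior count of 2, since a library of each pair is at 0, and is no measure of its size. Summed over Srp54a, Srp54b and Srp54c, the level was 158 and 136 CPM against 232 and 195 CPM, with log2 ratios of -0.55 and -0.52, a sum likewise chosen after seeing the data. No result of the report rests on a single copy of either family.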

How the results depend on the processing

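The counts of genes followed the limits. With a 1.5-fold limit 2037 genes were higher and 1929 lower without IL6 (1649 and 1538 in both pairs), and with a 4-fold limit, on ratios without a prior count, 470 and 257 (423 and 211). With a limit of 1 scaled CPM 1864 genes were higher (1464 in both pairs). The edgeR test called 2549 higher and 1810 lower genes with a fixed biological coefficient of variation of 0.2 and a likelihood ratio test, and 1135 and 514 with 0.4. DESeq2 called 2697 and 2272. Under the other alternatives tried (scaling, filters, limma-voom, fewer libraries in the fit, no IL6 term, the 3 h pair) each count stayed within 1.5 times its value. All 46 list medians that could be formed moved by less than 0.25 under the scalings and with a prior count of 0.5. In the 3 h pair, over the members tested without IL6, 7 moved by more. In the 3 h pair Entpd4 reversed, with a log2 ratio of -1.19, and Srp54c, which is at 0 in a library of each pair and has no ratio, turned too; Entpd4b, not called without IL6, went from -0.55 to 1.61. The causes were not tested. No paired analysis was possible because each group has 1 library and the labels give no replicate numbers, and for the same reason no replicate could be left out. Low counts limit genes below 5 CPM, which were not called.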

Other observations

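Of the genes with the largest differences in CPM, several stayed below 2-fold in the pair without IL6. Lyz2 had 44295 and 43092 CPM against 26026 and 29821 CPM, below 2-fold in both pairs (log2 ratios 0.77 and 0.53). Among the abundant genes with lower values in GM-BMDM, Mpeg1, a pore-forming protein of macrophages, had 2689 and 2841 CPM against 4466 and 4442 CPM. Plec, a linker of the cytoskeleton, had 570.3 and 584 CPM against 2097 and 2109 CPM and passed the 2-fold limit. Actb, beta-actin, had 4515 and 4069 CPM against 7832 and 8789 CPM. It was below 2-fold without IL6 (log2 ratio -0.79) and beyond it after 3 h (log2 ratio -1.11). Eef1a1, a translation elongation factor, had 4657 and 4436 CPM against 6012 and 6488 CPM.

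Among genes with close copies, the Cd300ld group of myeloid surface receptors was lower as a sum of 3 genes (24.4 and 28.8 CPM against 355.0 and 366 CPM; log2 ratios of -3.86 and -3.67). Cd300ld4 alone had 0.644 and 4.59 CPM against 52.1 and 43.6 CPM and Cd300ld5 had 6.07 and 1.75 CPM against 118 and 114 CPM. The sum of Tmem254a, Tmem254b and Tmem254c, membrane proteins of unclear role, was 50.4 and 50.97 CPM against 15.95 and 17.68 CPM (log2 ratios of 1.66 and 1.53), while Tmem254c had 13.4 and 12.7 CPM against 4.67 and 0.408 CPM. Both sums were chosen after seeing the data. Gpr171, a G protein-coupled receptor, had 21.8 and 24 CPM against 0.161 and 0 CPM, and Jaml, an adhesion protein of leukocytes, had 13.5 and 12.9 CPM against 0.161 and 0 CPM. Both were named because their 2 pair ratios, with a prior count of 2, were unlike. As M-BMDM_3h is at 0 for both genes, the prior count sets that difference, which is no measure of its size.

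Other runs of neighbouring genes that were higher in both pairs lay on chromosomes 5 and 10. The first held Rgs12, an inhibitor of G protein signalling (18.6 and 24.4 CPM against 8.97 and 8.12 CPM), Hgfac, the protease that activates hepatocyte growth factor (12.1 and 11.4 CPM against 0.161 and 0 CPM), Dok7, an adaptor of the muscle kinase MuSK (24.2 and 26.9 CPM against 0.322 and 0.317 CPM), Lrpap1, a chaperone of lipoprotein receptors (1393 and 1380.1 CPM against 218 and 241 CPM), and Adra2c, an adrenergic receptor (7.27 and 7.27 CPM against 0.0537 and 0.453 CPM). The second held Mical1, an actin oxidase (136 and 146 CPM against 29.4 and 30.7 CPM), Smpd2, a sphingomyelinase (14.3 and 15.5 CPM against 7.14 and 7.34 CPM), Cd164, a sialomucin (503 and 543 CPM against 125 and 112 CPM), and Cep57l1, a relative of a centrosome protein (5.89 and 5.63 CPM against 1.45 and 2.4 CPM).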
